A study of Mus musculus with 6 samples.

Results

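The collagen gene family was described in the cortex of 5XFAD mice, as every protein-coding row of the deposited count table whose symbol is Col, a chain-type number, a and a chain number. The rule found 44 genes among the 54532 gene identifiers of the table. By protein type, 11 of them encode fibrillar collagens, 6 encode basement membrane collagens of type IV, and 27 belong to other types. 5XFAD mice, a model of Alzheimer's disease, express mutant human transgenes from Thy1 promoter elements in neurons and deposit amyloid in the brain. All 6 mice carried that genotype. The 3 control libraries carry the treatment label NC. The 3 cell-treated libraries carry the label cell-treat, and the series title names the graft as GABAergic interneurons made from human induced pluripotent stem cells. The age and sex of the mice, the time after transplantation and any sham surgery are not given in the sources used here. According to the design text each group holds 3 biological replicates, but there the treated mice are called the control group. The table names the control columns AD, so these were taken as the controls because the other 3 columns are named Treated. The sign of every difference rests on that reading.

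Collagens are secreted proteins of 3 chains wound into a triple helix. Fibrillar collagens assemble into the banded fibrils of connective tissue, which in the brain lie mainly in the meninges and around larger vessels. Type IV collagen forms the sheet-like network of basement membranes, such as that of brain vessels, and further types decorate fibrils, form beaded filaments or short-chain networks, or span the cell membrane. In bulk tissue, fewer cells of a type and less RNA per cell cannot be told apart, and reads from human grafted cells were not separated from mouse reads.

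Total counts ran from 14221519 to 16696463 per library. Cell-treated library 3 stood apart, with a mean correlation with the other libraries of 0.936 across genes, against 0.963 to 0.968 for the other 5. It was the highest library by at least 3-fold for 124 of the 17042 genes tested and the lowest by at least 3-fold for 523. Its summed level of 6 astrocyte markers was 1063 CPM (the CPM unit of edgeR, counts relative to library size after TMM scaling), against 3556 to 6481 in the other libraries. Most of that sum was Slc1a2, at 699 CPM there and 2670.5 to 4835 CPM elsewhere. Slc1a3, Aqp4, Gja1 and Gjb6 were also lowest there, but Aldh1l1, at 112 CPM, lay within the 70.8 to 159.8 CPM of the others. The 6 oligodendrocyte markers summed to 2926 CPM in cell-treated library 3, against 4641 to 8282 CPM elsewhere. Control library 3 held the most RNA of striatal neurons, with 1799 CPM for 8 markers against 337 to 715 elsewhere. Cell-treated library 1 held the most of 6 olfactory bulb markers, at 293.6 CPM against 6.01 to 31.3. The 8 markers of cortical excitatory neurons summed to 1247 to 1783 CPM, and all 8 passed the filter on low counts. All 8 striatal markers had lower values in cell-treated libraries, 6 of them at an unadjusted p under 0.05 in edgeR, and none passed the adjusted threshold. The part of these marker differences in the collagen values was not tested.

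Upstream sequence is shown for the collagen with the largest spread between libraries, Col5a3, and for the one with the smallest p in the comparison, Col16a1. The junctions of head-to-head type IV pairs are shown because the paired chains are described together further on. All are RefSeq sequences of GRCm38.p6, found for 35 of the 44 genes, and the deposited coordinates of all 44 equal those of GENCODE M21 on GRCm38. Capitals mark matches on either strand. The GC box was searched as GGGCGG and the CAAT box as CCAAT. The TATA box was searched as TATAAA, and the AP-1 motif as TGANTCA. Matches to different motifs did not overlap in these sequences. In 250-base upstream windows of 32851 annotated starts, the GC box was found in 32.7%, the CAAT box in 33.8%, the TATA box in 12.4% and the AP-1 motif in 6.75%. The first line covers the 250 bases before the start of Col5a3 (chr9:20815068-20815317, minus strand) and the second those before the start of Col16a1 (chr4:130047590-130047839, plus strand). The third gives the 22 bases in which the annotated starts of Col4a1 and Col4a2 overlap (chr8:11312805-11312826, on the Col4a2 strand), and the fourth the 71 bases between the starts of Col4a4 and Col4a3 (chr1:82586850-82586920, on the Col4a4 strand).
Col5a3: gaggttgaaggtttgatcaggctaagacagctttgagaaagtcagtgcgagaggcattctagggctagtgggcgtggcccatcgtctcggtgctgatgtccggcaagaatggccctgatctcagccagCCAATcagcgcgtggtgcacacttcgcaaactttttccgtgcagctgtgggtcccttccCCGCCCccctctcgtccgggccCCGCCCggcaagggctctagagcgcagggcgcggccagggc
Col16a1: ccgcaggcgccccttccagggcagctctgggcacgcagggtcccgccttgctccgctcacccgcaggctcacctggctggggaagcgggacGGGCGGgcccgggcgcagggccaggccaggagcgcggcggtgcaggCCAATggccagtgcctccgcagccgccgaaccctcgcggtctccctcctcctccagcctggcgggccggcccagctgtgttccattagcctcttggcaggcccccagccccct
Col4a1/Col4a2: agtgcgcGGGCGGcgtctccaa
Col4a4/Col4a3: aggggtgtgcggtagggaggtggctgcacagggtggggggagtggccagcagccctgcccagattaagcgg
Of these, the Col5a3 window held 2 GC boxes and 1 CAAT box, and the Col16a1 window 1 of each. GC content was 62.8% for Col5a3 and 75.6% for Col16a1, against a median of 52.4% over all windows.

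The 44 genes lie on 15 chromosomes, and several of them are neighbours. Besides the pairs above, Col4a6 and Col4a5 stand head to head on the X chromosome with 1308 bases between them. Col6a2 and Col6a1 follow each other on chromosome 10 with 85161 bases between them, and Col6a6, Col6a5 and Col6a4 on chromosome 9 with 27917 and 28810. Col3a1 and Col5a2 lie tail to tail on chromosome 1, with 24614 bases between them.

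Every collagen gene had at least 1 read in each of the 6 libraries, and 42 of 44 passed the filter on low counts. The 2 that did not were Col10a1, a short-chain collagen of hypertrophic cartilage, at 0.0690 to 0.351 CPM, and Col4a3, a type IV chain of the kidney filter, at 0.207 to 1.05 CPM. Col10a1 shares 7105 bases with Nt5dc1 on the opposite strand, with 335 reads assigned to Nt5dc1 and 18 to Col10a1 in all. The genes may share reads, so the few reads of Col10a1 do not establish its expression. Levels between genes are compared as CPM per kilobase of the gene length in the table. The 6-library mean was 30.4 CPM per kilobase for Col6a1, a chain of type VI beaded filaments, 15.6 for Col4a2 and 12.1 for Col4a1. These were the 3 most abundant collagens. Col5a3 followed with 6.66, a mean set by 1 library, and then Col11a2 with 6.02, Col16a1 with 5.90 and Col5a1 with 5.37 CPM per kilobase. The connective-tissue chains Col1a1, Col1a2 and Col3a1 were at 2.42, 1.75 and 0.538. Of the cartilage collagen Col2a1 there was 0.431 CPM per kilobase.

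No collagen gene passed the test between cell-treated and control libraries. In edgeR's quasi-likelihood test over all 17042 genes, 0 of the 42 tested collagens had an adjusted p under 0.05, as had 0% of all genes, and the smallest adjusted p among collagens was 0.999. The unadjusted p was under 0.05 for 3 of 42 with lower values in cell-treated libraries (7.14%), against 1.06% of all genes, and for 0 with higher values, against 0.939%. DESeq2 also called 0 collagens, against 0.0647% of all genes, with 3 at an unadjusted p under 0.05, against 2.39%. Limma voom called 0, with 4 at an unadjusted p under 0.05 against 1.86% of all genes, and with sample quality weights 0, with 7 against 11.1%. Without a filter on low counts 0 collagens and 0.00305% of all genes were called. Cell-treated values were lower for 27 of 42 collagens (64.3%) and higher for 15, at a median log2 fold change of -0.20; over all genes 49.8% were lower, at a median of 0.0013. The groups did not overlap for 4 of 42 (9.52%), against 8.60% of all genes, a share close to the background. With 3 libraries a group, small differences could have been missed.

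**Figure D1:**
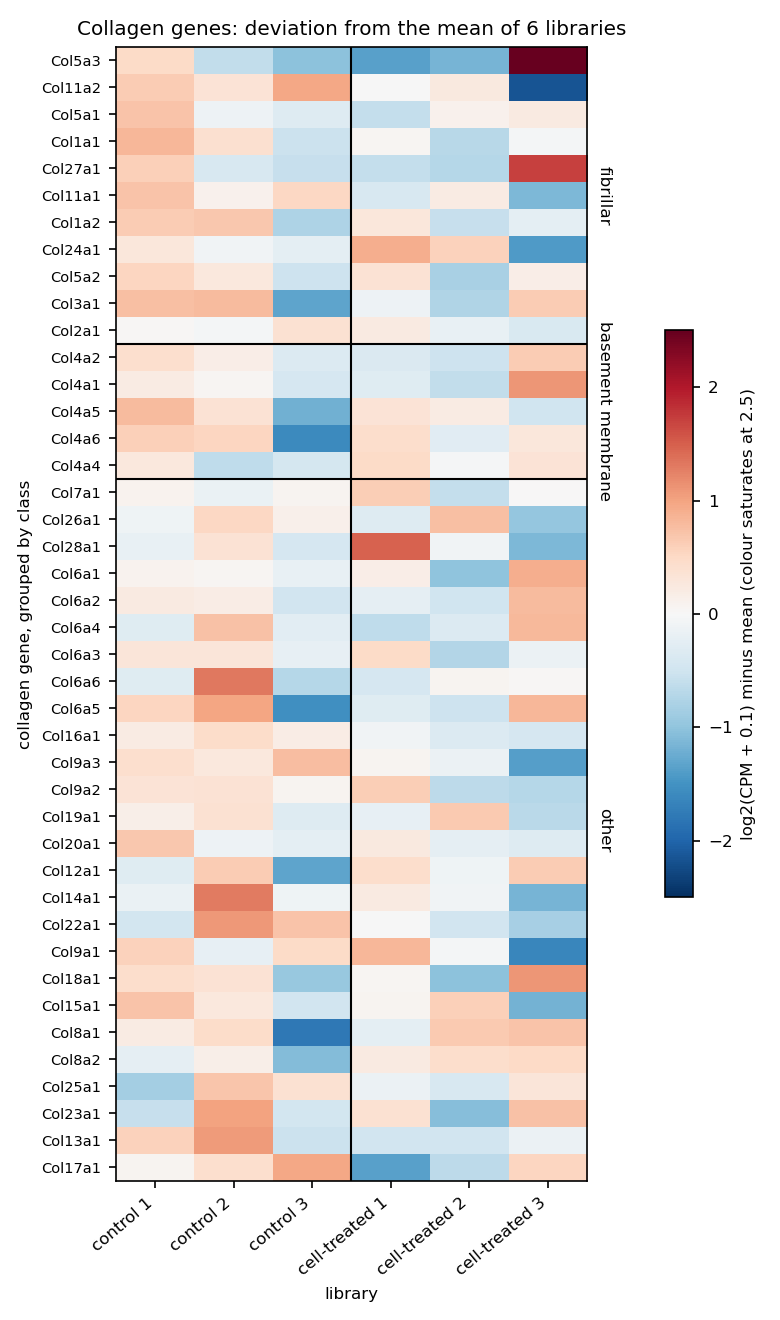
Deviation of each of the 42 tested collagen genes (rows, by class) from its mean over 6 libraries, as log2(CPM + 0.1), in each library (columns; control left and cell-treated right of the line). Cell-treated library 3 is deep red for Col5a3 and Col27a1 and deep blue for Col11a2, while control library 3 is blue for Col8a1, Col4a6 and Col3a1.

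Among fibrillar collagens, 8 of 11 had lower and 3 higher values in cell-treated libraries, and none passed. Their median log2 fold change was -0.23. Col5a3, a chain of type V collagen, which takes part in starting and sizing fibrils (ENSMUSG00000004098, chromosome 9, 20770050 to 20815067), was at 23.7, 11.01 and 8.31 CPM in control libraries 1, 2 and 3 and at 6.59, 7.50 and 215 CPM in cell-treated libraries 1, 2 and 3. Thus cell-treated library 3 lay 9.05-fold above the next library, while the other cell-treated libraries lay below every control. Col5a3 was the 1 collagen with any library at least 3-fold above the next, and 0.728% of all genes stood out so in that library. The fitted log2 fold change of Col5a3 was 2.41 ± 1.26 (SE; edgeR, adjusted p = 0.999), but -1.03 when cell-treated library 3 was left out. With all 6 libraries kept it was 0.80 by limma voom and 0.80 and 0.79 by limma on log2(FPKM + 1) and log2(FPKM + 0.1), and DESeq2 gave no p for it. The group means were 14.4 ± 8.25 CPM in controls and 76.4 ± 120.1 CPM in cell-treated libraries (SD, n = 3 each). Counts behind the value were 3457 reads in cell-treated library 3 and 105 to 344 elsewhere.

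Col27a1, a fibrillar collagen of cartilage, showed a like pattern at a smaller scale. It was at 33.8, 16.9 and 14.96 CPM in controls and at 14.7, 13.6 and 73.0 CPM in cell-treated libraries 1, 2 and 3. The log2 fold change, 0.63 ± 0.664 (SE), turned to -0.63 once cell-treated library 3 was left out. Col24a1 went the other way in that library, at 4.29 CPM, with 21.8 and 17.2 CPM in cell-treated libraries 1 and 2 and 14.1, 10.9 and 9.72 CPM in controls. Without cell-treated library 3, the log2 fold change of Col24a1 was 0.76 instead of 0.32. With all 6 libraries its groups overlapped.

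The type XI chains, which copolymerise into thin fibrils, had lower mean values in cell-treated libraries. Col11a2 (ENSMUSG00000024330, chromosome 17, 34039437 to 34066685) was at 53.4, 43.6 and 67.2 CPM in control libraries 1, 2 and 3 and at 34.0, 40.9 and 7.59 CPM in cell-treated libraries 1, 2 and 3. All 3 cell-treated values lay below every control, as for 4.30% of all genes, and cell-treated library 3 lay 4.48-fold below the next. A gap of at least 3-fold below the next library, a measure chosen after values were seen, was present in that library for 3.07% of all genes and for 1 further collagen, Col9a1. The log2 fold change of Col11a2 was -0.99 ± 0.524 (SE; edgeR, adjusted p = 0.999), or -0.55 if that library was left out. Col11a1 (ENSMUSG00000027966, chromosome 3, 114030540 to 114220718) was at 38.8, 25.6 and 34.0 CPM in controls and at 17.9, 27.4 and 10.9 CPM in cell-treated libraries. Means were 32.8 ± 6.69 and 18.7 ± 8.30 CPM (SD, n = 3 each). Here the highest cell-treated library lay above the lowest control. The log2 fold change of Col11a1 was -0.81 ± 0.337 (SE), with an unadjusted edgeR p of 0.0438 and an adjusted p of 0.999. It was -0.53 without cell-treated library 3 but -1.19 without cell-treated library 2.

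Col5a1, the chain found in most type V molecules, was at 71.3, 39.8 and 35.2 CPM in controls and at 29.0, 46.8 and 51.4 CPM in cell-treated libraries, so that the groups overlapped widely. Its difference on the log2 scale was -0.20 ± 0.323 (SE). For the type I and III chains of connective tissue the groups also overlapped. Col1a1 was at 26.5, 19.7 and 10.2 CPM in controls and at 15.3, 9.12 and 14.4 CPM in cell-treated libraries. Col1a2 was at 31.3, 32.4 and 11.7 CPM in controls and at 24.6, 13.4 and 17.0 CPM in cell-treated libraries. Col3a1 was at 7.80, 7.99 and 1.79 CPM in controls and at 4.203, 2.70 and 7.21 CPM in cell-treated libraries. Control library 3 was the lowest or among the lowest for all 3 genes, and without it the log2 fold changes were -0.83 for Col1a1, -0.79 for Col1a2 and -0.74 for Col3a1, instead of -0.54, -0.45 and -0.31. The remaining fibrillar chains, Col5a2 and Col2a1, had log2 fold changes of -0.17 and -0.23.

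Markers of meningeal and perivascular fibroblasts were followed beside these genes. All 12 passed the filter, 2 with higher and 10 with lower values in cell-treated libraries, and none passed the test. Their summed level was 175.9, 241 and 100.4 CPM in control libraries 1, 2 and 3 and 177, 122 and 144 CPM in cell-treated libraries 1, 2 and 3. Control library 3 thus had the lowest level of both the summed markers and Col3a1 and Col1a2. The largest part of the sum was Pdgfra, at 69.6, 102.5 and 61.1 CPM in controls and 67.4, 60.7 and 94.5 CPM in cell-treated libraries. Most of the sum in cell-treated library 3 was therefore this 1 gene, so the sum cannot stand for the whole list there. By gene, cell-treated library 3 was the lowest for Slc6a13, Slc22a6, Ranbp3l, Foxd1, Islr and Slc47a1. Control library 3 was the lowest for Foxc1, Slc22a2, Igf2 and Mgp, and cell-treated library 2 for Pdgfra and Aldh1a2. The part of fibroblast content in the collagen values was not tested.

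**Figure D2:**
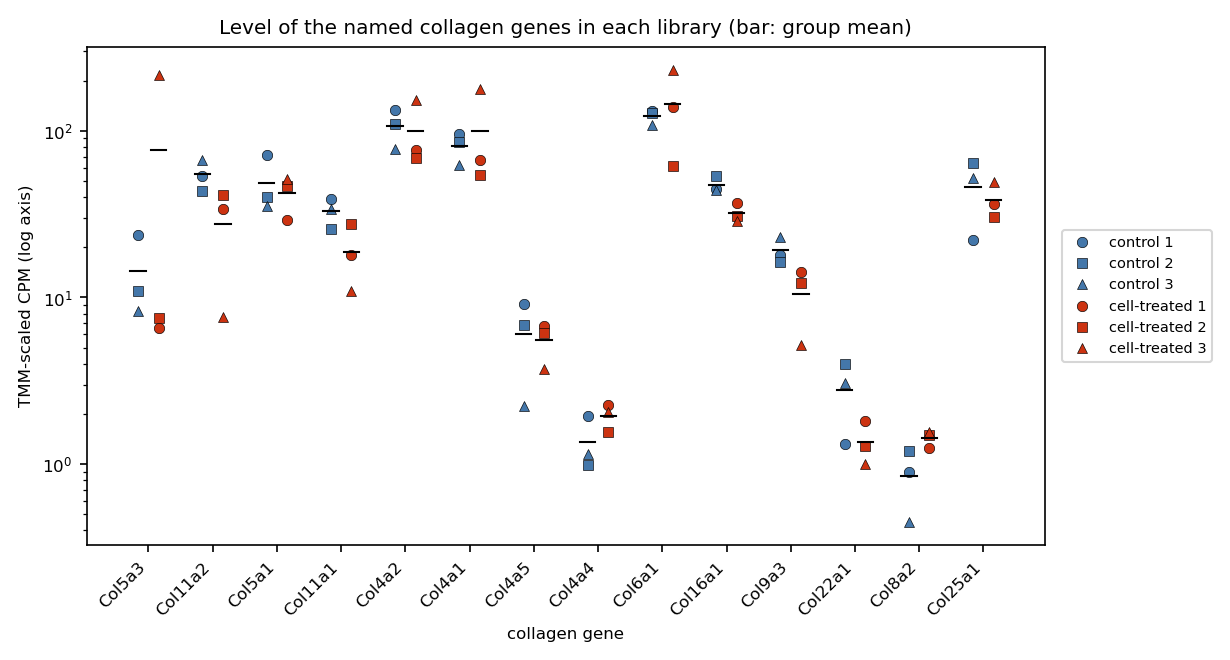
TMM-scaled CPM (log axis) of the 14 named collagen genes in each of the 6 libraries, control in blue and cell-treated in red; marker shapes give the replicate number and bars the group means. Col5a3 reaches 215 CPM in cell-treated library 3 and at most 23.7 elsewhere, while the groups of Col11a2, Col16a1 and Col9a3 do not overlap.

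Of the basement membrane collagens, 5 of 6 were tested, 3 with higher and 2 with lower values, and none passed. Their median log2 fold change was 0.046. Col4a1 and Col4a2, which form the type IV trimer of most basement membranes, were the most abundant of the class by a wide margin. Col4a1 (ENSMUSG00000031502, chromosome 8, 11198423 to 11312826) was at 96.1, 85.5 and 62.2 CPM in controls and at 67.2, 54.2 and 178 CPM in cell-treated libraries 1, 2 and 3. Col4a2 (ENSMUSG00000031503, chromosome 8, 11312805 to 11449287) was at 132, 110.4 and 77.7 CPM in controls and at 76.9, 68.8 and 152 CPM in cell-treated libraries. Means of Col4a1 were 81.3 ± 17.4 CPM in controls and 99.8 ± 68.0 CPM in cell-treated libraries, and those of Col4a2 were 107 ± 27.6 and 99.4 ± 46.1 CPM (SD, n = 3 each). Both chains were highest in cell-treated library 3, lowest in cell-treated library 2, and the 3 controls stood in the same order for both. The log2 fold change of Col4a1 was 0.30 ± 0.433 and that of Col4a2 -0.10 ± 0.337 (SE), turning to -0.42 and -0.55 if cell-treated library 3 was left out. Without library 3 of both groups they were -0.58 for Col4a1 and -0.74 for Col4a2, with unadjusted edgeR p values of 0.00741 and 0.00181 and an adjusted p of 0.557 each. That setting leaves out the lowest control and the highest cell-treated library of both genes, so these values depend on the choice.

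The remaining type IV chains were scarce. Col4a5, which forms networks with Col4a3 and Col4a4 or with Col4a6, was at 9.18, 6.80 and 2.24 CPM in controls and at 6.77, 6.15 and 3.73 CPM in cell-treated libraries, a log2 fold change of -0.13 ± 0.506 (SE). Its head-to-head neighbour Col4a6 was at 3.59, 3.44 and 0.703 CPM in controls and at 3.20, 1.89 and 2.86 CPM in cell-treated libraries. Control library 3 was the lowest for both. Col4a4 had the smallest p of the class, 0.240 in edgeR (unadjusted), at 1.93, 0.982 and 1.15 CPM in controls and 2.26, 1.55 and 2.05 CPM in cell-treated libraries.

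Endothelial markers, whose cells lay down type IV collagen, summed to 380 to 627 CPM in controls and to 462, 512 and 796 CPM in cell-treated libraries 1, 2 and 3. Between the groups, 8 of 10 markers were higher and 2 lower in cell-treated libraries, and none was called. The high sum in cell-treated library 3, where Col4a1 and Col4a2 were also highest, rested on Slc2a1, the glucose transporter of brain vessels, at 356 CPM there and at 76.1 to 124 CPM elsewhere. Without Slc2a1, left out after its values were seen, the sum was 440.1 CPM in that library, below the 503 CPM of control library 2, and 293 to 432 CPM in the other 4. Pecam1, Ly6c1 and Cdh5 were also highest in cell-treated library 3, at 70.2, 65.6 and 33.4 CPM. Elsewhere they reached at most 51.0, 46.5 and 27.7 CPM. Flt1, a receptor for vascular growth factor, was lowest in cell-treated library 3, at 76.1 CPM. The remaining endothelial markers were neither highest nor lowest there. Mural cell markers were at 263 to 538 CPM in controls and 301 to 385 CPM in cell-treated libraries, the latter lowest in library 3. Of 15 laminin, nidogen and proteoglycan partners of type IV collagen in basement membranes, the level was higher for 7 and lower for 8 and none passed (median log2 fold change -0.072). Their sum in cell-treated library 3, 499 CPM, lay within the 444 to 588 CPM of the other libraries. The part of vessel content in the Col4a1 and Col4a2 values was not tested.

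**Figure D3:**
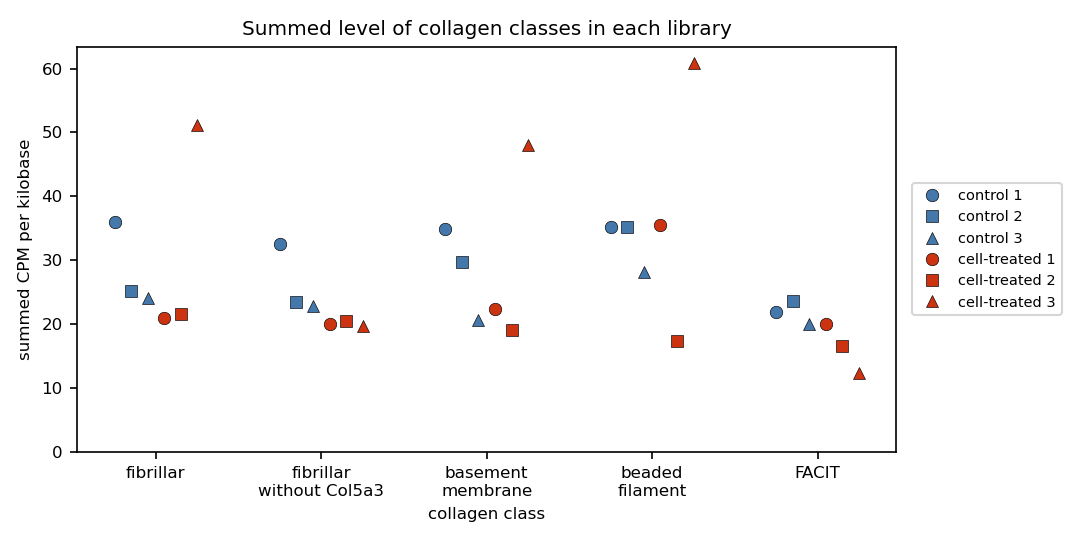
Summed level (CPM per kilobase, linear axis from 0) of the fibrillar class with and without Col5a3, the basement membrane class, the beaded filament class and the FACIT class in each library, control in blue and cell-treated in red. Cell-treated library 3 is highest for 3 classes and lowest for the FACIT class, and it falls to 19.6 in the fibrillar class once Col5a3 is left out.

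Summed per class, fibrillar collagens were at 36.0, 25.1 and 24.0 CPM per kilobase in controls and at 20.9, 21.6 and 51.2 in cell-treated libraries 1, 2 and 3. Without Col5a3, a choice made after its values were seen, these sums were 32.5, 23.5 and 22.8 in controls and 19.9, 20.5 and 19.6 in cell-treated libraries. The groups then did not overlap, but this rests on that choice and is not a result about the class. Basement membrane collagens summed to 34.9, 29.8 and 20.6 CPM per kilobase in controls and to 22.3, 19.0 and 48.0 in cell-treated libraries. The ratio of basement membrane to fibrillar level lay between 0.859 and 1.19 in the 6 libraries. With Col5a3 left out of the fibrillar sum, the ratio was 2.45 in cell-treated library 3 and 0.905 to 1.27 in the others, so that the narrow range rested on Col5a3 in that library. Over all 44 genes the summed level was 186 CPM per kilobase in cell-treated library 3 and 83.3 in cell-treated library 2, the remaining libraries ranging from 102.7 to 138.

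Of the 27 other collagens, 26 were tested, 17 with lower and 9 with higher values in cell-treated libraries, at a median log2 fold change of -0.21. None passed. FACIT collagens, which have interrupted triple helices and sit on fibril surfaces, held 2 of the 3 collagens with an unadjusted p under 0.05. Col16a1 (ENSMUSG00000040690, chromosome 4, 130047840 to 130099283) was at 44.9, 53.5 and 44.3 CPM in controls and at 36.8, 30.7 and 28.9 CPM in cell-treated libraries. Every cell-treated value lay below every control, with no library far from its group. Means were 47.6 ± 5.14 CPM in controls and 32.1 ± 4.14 CPM in cell-treated libraries (SD, n = 3 each). Its log2 fold change of -0.57 ± 0.176 (SE) had the smallest unadjusted edgeR p of all collagens, 0.0122 (adjusted p = 0.999), and ran from -0.68 to -0.48 with single libraries left out.

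Col9a3, a chain of type IX collagen, known from cartilage (ENSMUSG00000027570, chromosome 2, 180597790 to 180622189), was at 18.1, 16.3 and 23.1 CPM in controls and at 14.2, 12.2 and 5.16 CPM in cell-treated libraries 1, 2 and 3. The groups did not overlap, and its log2 fold change was -0.86 ± 0.370 (SE), with an unadjusted edgeR p of 0.0481, or -0.54 if cell-treated library 3 was left out. It overlaps Tcfl5 on the opposite strand by 234 bases, with 53 reads assigned to Tcfl5 and 1345 to Col9a3 in all, and no strand-marking kit is named. Of the partner chains of type IX, Col9a2 was at 8.50 to 10.5 CPM in controls and at 12.5, 5.13 and 4.91 CPM in cell-treated libraries, and Col9a1 was at 0.249 to 1.82 CPM over all 6. Col22a1, a collagen of tissue junctions, was at 1.31, 3.997 and 3.07 CPM in controls and 1.82, 1.28 and 0.995 CPM in cell-treated libraries, a log2 fold change of -1.03 ± 0.496 (SE). The low values of Col9a1 and Col22a1 rest on few reads, down to 4 and 16 per library. The FACIT class summed to 21.9, 23.6 and 20.1 CPM per kilobase in controls and to 19.9, 16.5 and 12.4 in cell-treated libraries.

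Col6a1 (ENSMUSG00000001119, chromosome 10, 76708792 to 76726168), the most abundant collagen per length, was at 131, 128 and 108 CPM in controls and at 138, 61.2 and 233 CPM in cell-treated libraries 1, 2 and 3. Its neighbour Col6a2 was at 33.3, 32.2 and 20.3 CPM in controls and at 24.3, 20.1 and 49.4 CPM in cell-treated libraries. Both were highest in cell-treated library 3 and lowest in cell-treated library 2, the same extreme libraries as for Col4a1 and Col4a2. Log2 fold changes of Col6a1 and Col6a2 were 0.23 ± 0.414 and 0.13 ± 0.362 (SE), or -0.30 and -0.37 if cell-treated library 3 was left out. Col6a3, the remaining chain of the classic type VI trimer, was at 3.26 to 4.70 CPM in controls and 2.23 to 5.33 CPM in cell-treated libraries and was highest in cell-treated library 1.

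Col25a1, a transmembrane collagen whose shed part is known as a component of amyloid plaques in human Alzheimer's disease (ENSMUSG00000058897, chromosome 3, 130131501 to 130599877), was at 22.1, 63.9 and 52.0 CPM in controls and at 36.1, 30.3 and 49.1 CPM in cell-treated libraries. All cell-treated values lay inside the range of the controls. The log2 fold change of Col25a1, -0.26 ± 0.375 (SE), ran from -0.59 without control library 1 to 0.053 without control library 2. Col8a2, a short-chain network collagen, was the 1 collagen with all cell-treated values above all controls, at 1.25, 1.49 and 1.55 CPM against 0.898, 1.19 and 0.447 CPM. The share of all genes placed so was 4.30%, and the Col8a2 values rest on 7 to 25 reads per library. The log2 fold change of Col8a2 was 0.76 ± 0.466 (SE).

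The remaining members had log2 fold changes from -0.92 for Col13a1, a transmembrane collagen, to 0.57 for Col28a1. Col18a1 and Col15a1, multiplexins of the vascular basement membrane zone, went to opposite extremes in cell-treated library 3: Col18a1 had 21.6 CPM there against no more than 13.5 in any other library, and Col15a1 had 3.05 CPM against no less than 4.99. Col18a1 overlaps Slc19a1 on the opposite strand by 8825 bases, so the genes may share reads. Col8a1 was at 0.511 CPM in control library 3, 3.31-fold below the next library, a gap seen in that library for 0.393% of all genes.

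**Figure D4:**
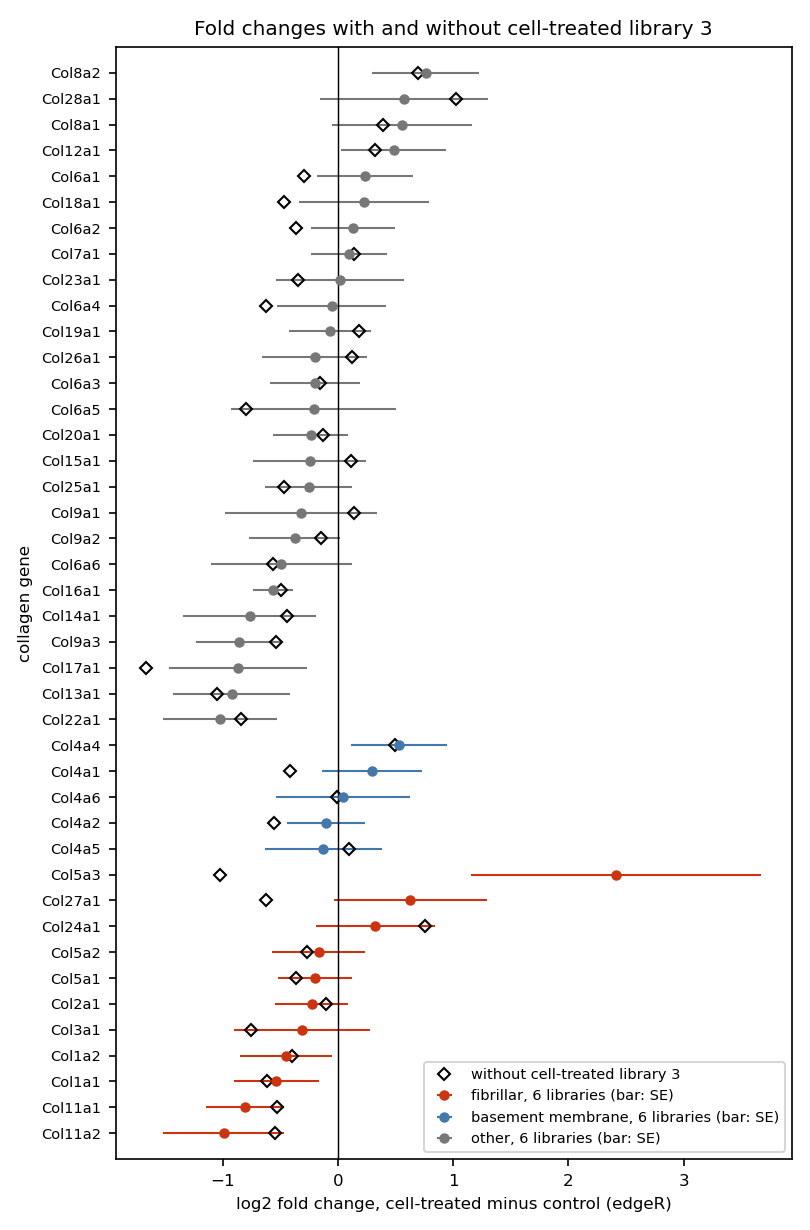
Log2 fold change of each tested collagen gene, cell-treated minus control, from edgeR with all 6 libraries (filled, bar: SE) and without cell-treated library 3 (open diamonds). Col5a3, Col27a1, Col4a1 and Col6a1 are among those whose sign changes without that library, while Col16a1 and Col8a2 stay close to their values.

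The library with the highest or lowest value differed from gene to gene. Cell-treated library 3 was the highest of the 6 for 11 of 42 collagens (26.2%) and the lowest for 15 (35.7%), against 28.7% and 32.6% of all genes. Cell-treated library 2 was the lowest for 11 (26.2%), against 12.2% of all genes, and control library 3 for 10 (23.8%), against 16.7%. Controls 1 and 2 were each the lowest for 1 collagen, against 10.6% and 15.2% of all genes. Without cell-treated library 3, values were lower for 30 of 42 collagens, against 52.6% of all genes, and 6 (14.3%) had an unadjusted p under 0.05 against 4.54%. Without library 3 of both groups, 33 of 42 were lower, against 50.9% of all genes, and 12 (28.6%) had an unadjusted p under 0.05 against 8.87%, with 0 called at the adjusted threshold. In that setting the median log2 fold changes were -0.55 for fibrillar, -0.46 for basement membrane and -0.38 for other collagens. It leaves out control library 3, the lowest for 10 collagens, and cell-treated library 3, the highest for 11 and the lowest for 15. Its counts and medians depend on that choice of libraries.

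The enzymes and partners of collagen were read from lists chosen with earlier results of these data known. None of their genes passed edgeR's test over all genes. Of 18 folding and modification genes, the level was higher for 6 and lower for 12, with a median log2 fold change of -0.12. The smallest p there was that of Colgalt1, which adds galactose to hydroxylysine, at 62.0, 75.4 and 67.6 CPM in controls and 56.3, 56.0 and 60.0 CPM in cell-treated libraries, with no overlap. P3h3, of the prolyl 3-hydroxylase family, had a log2 fold change of -0.39. Groups did not overlap for 2 of the 18 genes, Colgalt1 and P3h1, against 8.60% of all genes. Of 10 secretion and propeptide processing genes, 5 had higher and 5 lower values, and 1 did not overlap. Mia2, which takes part in the export of large cargo from the endoplasmic reticulum, was at 38.6, 37.7 and 35.7 CPM in controls and 48.9, 47.2 and 53.0 CPM in cell-treated libraries, again with no overlap (log2 fold change 0.41 ± 0.1501, SE). Tll1, a propeptide protease related to Bmp1, was at 1.10, 1.89 and 4.15 CPM in controls and 10.3, 1.55 and 13.1 CPM in cell-treated libraries.

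Crosslinking genes had 1 higher and 4 lower values among 5 tested of 6. Pxdn, the peroxidase that forms sulfilimine crosslinks in type IV collagen, was at 115, 105 and 67.7 CPM in controls and 74.4, 74.5 and 52.7 CPM in cell-treated libraries (log2 fold change -0.52 ± 0.245, SE). It had its lowest value in cell-treated library 3, where Col4a1 and Col4a2 had their highest. Loxl2, a lysyl oxidase, had a log2 fold change of 0.46, which was -0.15 without that library. Of 9 collagen receptors tested of 11, 5 were higher and 4 lower, with Mrc2, an endocytic collagen receptor, at -0.33 and the integrin chain Itga1 at 0.41 (log2 fold changes).

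Degradation genes and their inhibitors had 6 higher and 2 lower levels among 8 tested of 10, their median log2 fold change being 0.45. Their sum was 440.5 to 499 CPM in controls and 441, 344 and 1235 CPM in cell-treated libraries 1, 2 and 3. Most of the sum was Timp2, a metalloproteinase inhibitor, at 1058 CPM in cell-treated library 3 and at 227 to 353 CPM elsewhere. Without Timp2, chosen after its values were seen, the sum was 177 CPM in that library and 94.4 to 174 CPM in the others. Timp2 had a log2 fold change of 0.65 and the inhibitor Timp1 one of 1.72, or -0.35 and -0.54 if cell-treated library 3 was left out. Ctsk, a collagen-cleaving cathepsin, had 20.1 CPM in cell-treated library 3 and 1.41 to 4.21 elsewhere, and its log2 fold change of 1.69 was 0.17 without that library. Timp4, a further inhibitor, had a log2 fold change of -0.48. Of 14 fibril-associated proteins tested of 15, 8 were higher and 6 lower. Fn1, fibronectin, had 309 CPM in cell-treated library 3 and 31.6 to 109.8 elsewhere, so that its log2 fold change of 0.90 was -0.094 without that library. Tnxb, tenascin-X, was the 1 of these 14 without overlap, at 7.04, 8.69 and 6.33 CPM in controls and 5.52, 6.28 and 4.98 CPM in cell-treated libraries. Agrn was the 1 of 15 basement membrane partners without overlap. Among crosslinking, receptor and degradation genes 0 were without overlap, and the share of all genes was 8.60%. The basement membrane partners with the smallest p were Lamc3 and Lama3, laminin chains, with log2 fold changes of -0.52 and 0.64.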

How the data were processed

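Polyadenylated RNA of cortex was sequenced in 6 libraries, all with the same batch label. Tools listed in the submitters' processing notes are DESeq2, featureCounts and HISAT2 (version 2.0.5), with no settings, and no genome build was stated in the sources used here. The deposited counts are whole numbers of reads per gene. The deposited FPKM values equal the counts per kilobase, scaled to a library total chosen by the authors, 0.953 to 1.03 times the sum of counts; they were used as an alternative. A deposited table of group means was not used.

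The filter was filterByExpr with a minimum count of 10 and a minimum total of 15. TMM factors scaled the libraries, and edgeR 4.0.16 gave the test (robust quasi-likelihood F test, R 4.3.3), with Benjamini-Hochberg adjustment over all genes and a threshold of 0.05. Standard errors come from the F statistic. No list test was run. The pipeline was tested on simulated data. Precision is limited by 3 libraries per group; p-values measure the spread between these libraries. Members and lists were chosen with earlier results of these data known. Named were, in each class, the 3 collagens of highest level and the 3 of smallest p, those without overlap, Col25a1 and the 2 partners of smallest p per list. Col27a1, Col24a1, Col1a1, Col1a2, Col3a1, Col4a6, Col6a2 and further members were added as members of the family after their values were seen. Alternatives were DESeq2 1.42.0, limma 3.58.1 (voom, voom with sample quality weights, log2(FPKM + 1), log2(FPKM + 0.1)), other scaling factors and filters, the replicate number as a block, and libraries left out. Figures were drawn with matplotlib 3.10.9.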

Additional observations from a re-analysis of the deposited data

How the results depend on the processing

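No collagen passed the adjusted threshold in any of the 17 other settings; 12 had an unadjusted p under 0.05 without library 3 of both groups and 7 by voom with sample quality weights, while the replicate block left 1 of the 3, Col16a1, against 1.87% of all genes. With single libraries left out, 0 collagens were called and the median log2 fold change ran from -0.53 to -0.051 for fibrillar, -0.29 to 0.36 for basement membrane and -0.32 to 0.033 for other collagens. Without library 3 of both groups the basement membrane median was -0.46 instead of 0.046; the cause was not tested. The sign changed, in log2 fold change, for Col5a3 by quality weights (-1.05) and without library 3 of both groups (-1.30), for Col4a1 (-0.45 and -0.58) and Col6a1 (-0.27 and -0.38) in the same settings, for Col25a1 by quality weights (0.047), and for Col4a5 by voom (0.064), log2(FPKM + 0.1) (0.033) and the replicate block (0.031). With single libraries left out the ranges were -1.03 to 2.98 for Col5a3, -0.39 to 0.18 for Col5a1, -0.55 to 0.10 for Col4a2, -0.42 to 0.59 for Col4a1, -0.52 to 0.30 for Col4a5, -0.30 to 0.60 for Col6a1 and -0.59 to 0.053 for Col25a1. Of 238 values of the 14 named genes, 217 kept their direction. Pairing by replicate number was not seen in the values. Deviations from the group means of same-numbered libraries correlated at -0.28, 0.081 and 0.073 across genes, and not every library correlated best with its own number. Such correlations cannot decide whether the design was paired, because deviations cancel out within each group of 3. Under the replicate block the count of calls stayed at 0, the unadjusted p of Col11a1 was 0.0586 and that of Col9a3 0.0743, the log2 fold change of Col5a3 was 0.39 instead of 2.41, and the medians were -0.24 for fibrillar, 0.090 for basement membrane and -0.18 for other collagens. Members with few reads, such as Col8a2 and Col4a4, are limited by counting error.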
